A study of Homo sapiens with 2 samples.

Results

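The genes described here are 9 regulators of clotting and of plasmin formation: TFPI, TFPI2, F3, THBD, THBS1, SERPINE2, PLAT, PLAU and PLAUR. They were chosen by their function and by differences already seen between these same arrays, so their differences are given as a description. All probe sets that the platform annotation pairs with exactly 1 of these symbols were taken, 26 of the 54675 probe sets on the array. No probe set that lists several genes names a member.

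The study used C33-A, a human cell line established from a carcinoma of the cervix and free of papillomavirus. The CA9 line had been stably transfected with full-length human CA9 cDNA in pcDNA3.0, a plasmid whose viral promoter drives the insert in most cell types, and the vector line was C33-A transfected with the empty vector. CA9 encodes carbonic anhydrase IX, a membrane enzyme that hydrates carbon dioxide. Both lines were kept in RPMI with 10% fetal bovine serum, antibiotics and carbon dioxide in air, and RNA was taken on day 4 after seeding. There was 1 Affymetrix array per line, and the labels do not say whether either line is 1 clone or a pool. The comparison asks which genes differ between the CA9-transfected cells and their vector control. With no replicate, culture-to-culture variation cannot be separated from an effect of the transgene, and no p-value is given. The level of CA9 itself was not analysed here.

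Blood clotting is started by tissue factor, a membrane receptor that binds factor VII and so leads to thrombin. TFPI, a secreted and surface-bound protein with Kunitz domains, blocks the tissue factor complex and factor Xa, while its relative TFPI2 sits in the extracellular matrix and chiefly inhibits plasmin and trypsin. Plasmin is made from plasminogen by the activators tPA and urokinase, and tumour cells use it to degrade matrix. TFPI2 is known as a gene that is often silenced by promoter methylation in carcinomas, cervical carcinoma among them.

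The sequences upstream of TFPI2, TFPI and THBS1 are shown because these 3 genes carried the differences of at least 2-fold. Each is the stretch of 250 bases that ends just before the annotated transcript start, from RefSeq on GRCh38.p14 with 1 start per gene, written 5′ to 3′ on the strand of the gene. TFPI2 lies at chr7:93890754-93891003 on the minus strand, TFPI at chr2:187554436-187554685 on the minus strand and THBS1 at chr15:39580829-39581078 on the plus strand. Capitals mark matches on either strand to 5 motifs, namely the GC box motif GGGCGG, the AP-1 motif TGANTCA, the TATA box motif TATAAA, the TEAD motif GGAATG and the hypoxia response core ACGTG.
TFPI2: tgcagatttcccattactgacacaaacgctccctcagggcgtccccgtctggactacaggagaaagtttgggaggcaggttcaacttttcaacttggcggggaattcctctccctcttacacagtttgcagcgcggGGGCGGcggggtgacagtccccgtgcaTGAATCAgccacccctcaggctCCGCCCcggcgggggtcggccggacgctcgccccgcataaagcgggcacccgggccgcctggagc
TFPI: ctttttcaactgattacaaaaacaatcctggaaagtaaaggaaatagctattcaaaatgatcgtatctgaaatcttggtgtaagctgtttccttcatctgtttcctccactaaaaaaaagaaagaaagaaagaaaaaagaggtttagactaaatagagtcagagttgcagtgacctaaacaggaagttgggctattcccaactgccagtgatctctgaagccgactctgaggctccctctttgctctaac
THBS1: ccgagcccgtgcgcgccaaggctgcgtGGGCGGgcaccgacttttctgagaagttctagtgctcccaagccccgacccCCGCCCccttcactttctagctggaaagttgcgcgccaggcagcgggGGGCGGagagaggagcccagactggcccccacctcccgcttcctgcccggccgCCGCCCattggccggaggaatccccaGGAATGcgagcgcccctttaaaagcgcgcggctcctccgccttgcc

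These stretches differ in composition. The TFPI2 sequence holds 20 CpG dinucleotides and is 64.4% G or C, that of THBS1 holds 24 CpG at 69.6%, and that of TFPI holds 2 CpG at 38.4%. Over 35116 upstream stretches of the same length the medians were 11 CpG and 58% G or C. TFPI2 had 2 GC boxes and 1 AP-1 match, THBS1 had 4 GC boxes and 1 TEAD match, and TFPI had no match to any of the 5 motifs. A GC box was found in 42.6% of all these stretches, an AP-1 match in 6.57%, a TATA box in 10.7%, a TEAD match in 11.9% and the hypoxia core in 18.5%. The array says nothing about binding or methylation at these sites.

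Of the other members, F3, SERPINE2, PLAU and PLAUR were found in the same table, and THBD and PLAT were not. F3 had the densest stretch, with 34 CpG, 4 GC boxes, 2 AP-1 matches and 1 TATA box. PLAUR had 13 CpG and 1 AP-1 match. SERPINE2 had 6 CpG, 1 GC box and 2 matches to the hypoxia core that overlap on opposite strands. PLAU had 4 CpG and no match. The higher gene TFPI2 and the lower gene THBS1 thus both lay behind stretches with CpG counts above the median, and the lower gene TFPI behind one below it.

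**Figure D1:**
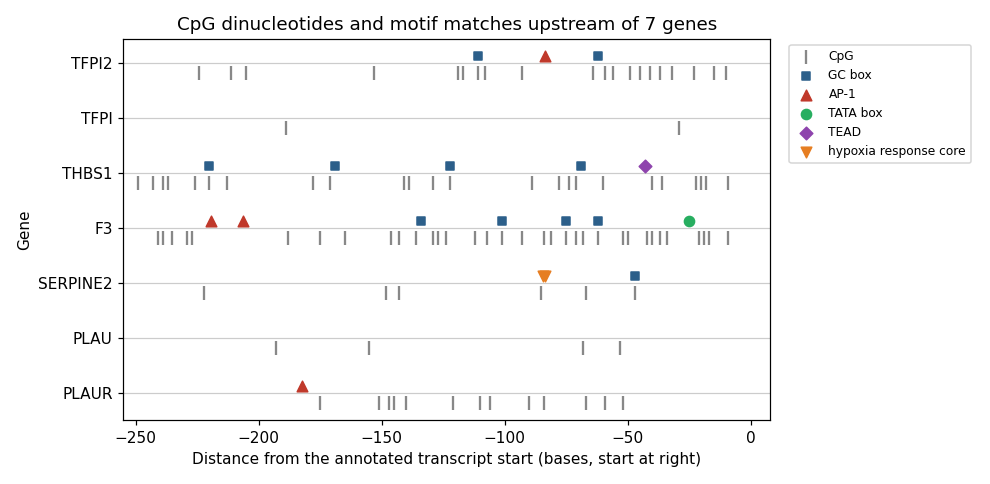
Positions of CpG dinucleotides (grey ticks) and of motif matches (symbols) in the 250 bases upstream of 7 member genes; the horizontal axis is the distance in bases from the annotated transcript start. TFPI carries 2 CpG and no motif match, TFPI2 carries 20 CpG and THBS1 carries 24, and the hypoxia core appears in SERPINE2 alone among these 7.

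The deposited values are intensities on a linear scale. A probe set was taken as above the floor if its higher array exceeded 40.8, the median intensity of the non-control probe sets on the pair of arrays. Of the 26 member probe sets, 16 were above the floor on at least 1 array, 10 of them on both, and 10 were at or below it on both arrays. Differences are given as CA9 minus vector on the log2 scale, and a gene or probe set counts as called when they differ by 2-fold or more. If the dimmer array did not pass the floor, the floor stands in for it and the fold is written with "at least". Probe sets of the same gene scattered around their gene's mean difference with a pooled SD of 0.31. That SD describes disagreement between probe sets within this pair of arrays and not the spread between cultures.

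Represented by the brightest probe set, 8 of the 9 genes were measurable, and PLAT was not. TFPI2 was called higher in the CA9 line and TFPI and THBS1 were called lower, and the other 5 lay within 2-fold. Over all 13823 measurable genes, 0.651% were called higher and 0.694% lower. Because the genes were chosen with such differences known, nothing is read from the members' counts against these shares. The median difference of the 8 measurable members was -0.02, and that of all measurable genes was -0.03. Setting the array medians equal turned the calls over all genes from 90 higher and 96 lower to 69 higher and 123 lower, and the 3 member calls stood.

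**Figure D2:**
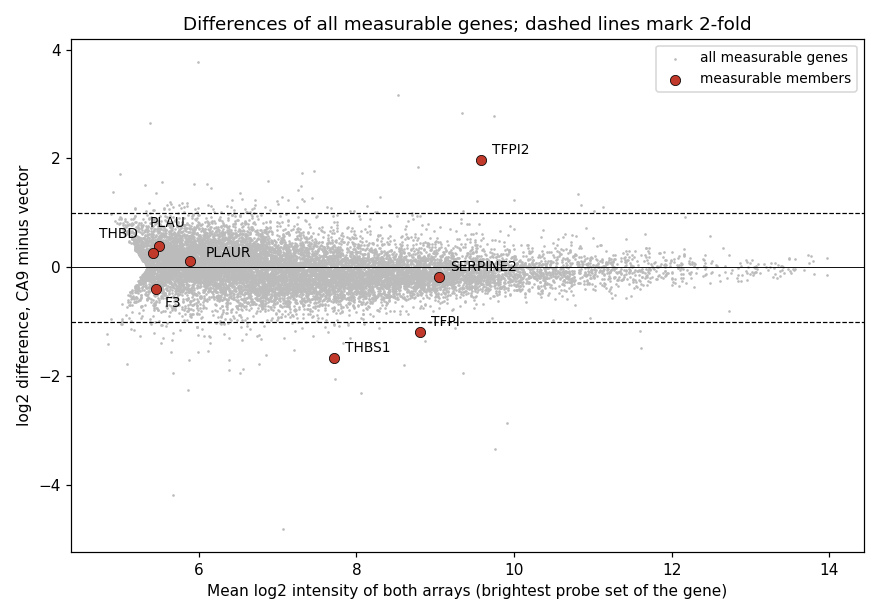
log2 difference (CA9 minus vector) against the mean log2 intensity of both arrays for 13823 measurable genes (grey points), with the 8 measurable members in red and dashed lines at 2-fold. TFPI2 at 1.96 lies above the upper line, TFPI at -1.19 and THBS1 at -1.66 lie below the lower line, and the other 5 members lie between the lines.

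The 2 tissue factor pathway inhibitors stood on opposite sides. In probe set 209278_s_at TFPI2 had 1514 in CA9 cells and 388 in vector cells, a difference of 1.96 or 3.90-fold. Its second probe set, 209277_at, had 379 in CA9 cells and 151 in vector cells, which is 2.52-fold and 1.33 on the log2 scale. Both probe sets lay above the floor on both arrays and both were higher in the CA9 line. By 209278_s_at, its brightest probe set, TFPI2 had the 6th largest positive difference of all measurable genes. That order is not settled for genes with a value below the floor, and no rank was taken for 209277_at, at 1.33. In such RNA of whole cultures, a change in the share of cells that express a gene and a change in RNA per cell cannot be told apart.

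TFPI, the inhibitor that acts on tissue factor and factor Xa, was lower in the CA9 line in 4 of its 5 probe sets. Its brightest probe set, 213258_at, had 296 in CA9 cells and 674 in vector cells, a difference of -1.19. Probe set 210664_s_at had 272 in CA9 cells and 638 in vector cells, a difference of -1.23. These brighter probe sets gave nearly the same ratio. Probe set 210665_at had 72.5 in CA9 cells and 250.2 in vector cells, at -1.79. In 209676_at the CA9 line, at 40.02, lay just under the floor and the vector line stood at 104, so that TFPI was at least 2.55-fold lower there. The fifth, 214378_at, was below the floor on both arrays, at 16.5 in CA9 cells and 13.5 in vector cells. Over the 4 probe sets above the floor the mean difference was -1.40 with an SD of 0.27, which is a spread over probe sets of 1 pair of RNA samples. By its brightest probe set, 213258_at, TFPI had the 51st most negative difference of the measurable genes.

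**Figure D3:**
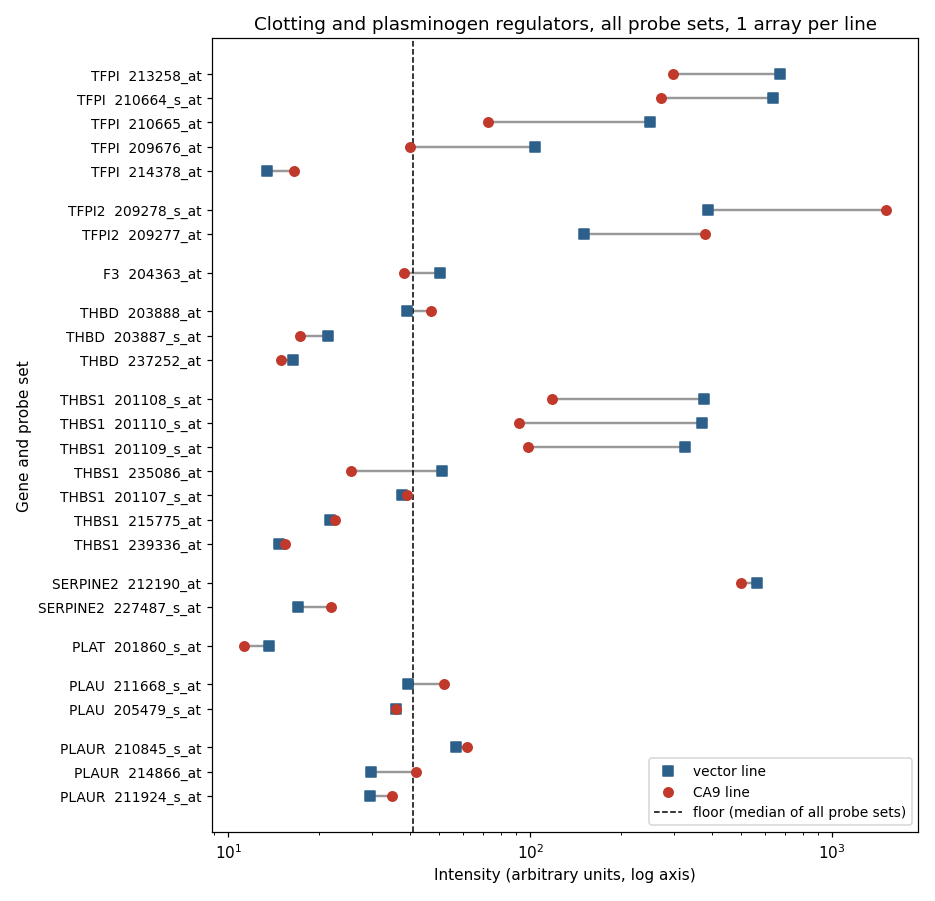
Intensity (log axis, arbitrary units) of all 26 member probe sets in the CA9 line (red circles) and the vector line (blue squares), 1 array each, with the floor of 40.8 as a dashed line. The probe sets of TFPI and THBS1 that reach above the floor have the CA9 line to the left, both TFPI2 probe sets have it to the right, and the pairs below the floor lie close together.

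THBS1 encodes thrombospondin 1, a matrix glycoprotein of platelets and many other cells that limits vessel growth and can activate latent TGF-beta. It had 7 probe sets, of which 4 reached above the floor, and all 4 were lower in the CA9 line. The brightest, 201108_s_at, had 119 in CA9 cells and 376 in vector cells, a difference of -1.66. Probe set 201110_s_at had 92.0 in CA9 cells and 372 in vector cells, at -2.02 or 4.05-fold lower. Probe set 201109_s_at had 98.4 in CA9 cells and 326 in vector cells, at -1.73. The 3 sets gave the vector line between 3.17 and 4.05 times the level of the CA9 line. In 235086_at the CA9 line, at 25.5, was under the floor and the vector line was at 51.0, which makes THBS1 at least 1.25-fold lower there, with a measured ratio of 2.002. The 3 probe sets below the floor had differences from 0.05 to 0.07, and the nearest to the floor, 201107_s_at, had 39.0 in CA9 cells and 37.6 in vector cells. THBS1 was called lower with the brightest probe set and fell short of 2-fold, at -0.89, when all 7 were averaged.

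At the level of single probe sets, 8 of the 16 member probe sets above the floor were called lower by their measured ratios and 2 were called higher. With the floor in place of a value below it, 7 of the 8 were at least 2-fold lower, and 235086_at of THBS1 was not. All 8 belong to TFPI and THBS1 and both of the higher ones to TFPI2, so that they stand for 3 genes. Of all 24174 single-gene probe sets above the floor 0.782% were called lower and 0.749% higher, and here too nothing is read from the members' counts.

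F3 encodes tissue factor itself. Its single probe set, 204363_at, had 38.1 in CA9 cells and 50.2 in vector cells. The CA9 line was under the floor, and F3 was at least 1.23-fold lower, with a measured difference of -0.40. Both values are near the floor, so that these arrays give little on the level of tissue factor in either line.

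THBD encodes thrombomodulin, the receptor that turns thrombin into an activator of protein C. In its brightest probe set, 203888_at, the CA9 line had 46.8 and the vector line 39.0, at least 1.15-fold higher in the CA9 line and 0.26 by the measured values. Its other probe sets, 203887_s_at and 237252_at, were below the floor on both arrays and had differences of -0.32 and -0.12. THBD had no probe set above the floor on both arrays.

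SERPINE2 encodes protease nexin 1, a serpin that inhibits thrombin, urokinase and plasmin at the cell surface and in the matrix. It had 499 in CA9 cells and 563 in vector cells in 212190_at, a difference of -0.17. That is smaller than the pooled SD of 0.31 between probe sets of 1 gene. A second probe set, 227487_s_at, was below the floor, at 21.8 and 17.0. SERPINE2 was thus the one member besides TFPI, TFPI2 and THBS1 with a probe set well over the floor on both arrays, and it was nearly equal between the lines.

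The plasminogen activators and the urokinase receptor were dim. PLAT, the gene of tissue plasminogen activator, had 11.3 in CA9 cells and 13.6 in vector cells in its only probe set, both below the floor, and no fold is given. PLAU, the gene of urokinase, had 51.6 in CA9 cells and 39.2 in vector cells in 211668_s_at, at least 1.26-fold higher in the CA9 line. Its other probe set, 205479_s_at, had 35.8 on both arrays and was below the floor. Its 2 values were exactly equal, as in 1425 of the 54675 probe sets. PLAUR encodes the surface receptor that concentrates urokinase on cells. It had 61.9 in CA9 cells and 56.7 in vector cells in 210845_s_at, a difference of 0.13. In 214866_at the CA9 line, at 42.0, barely passed the floor and the vector line was at 29.7, at least 1.03-fold higher in the CA9 line, and in 211924_s_at it had 34.8 and 29.6, both below the floor. All 3 PLAUR probe sets had the CA9 line on the higher side, by measured differences of 0.13 to 0.50, and none reached 2-fold.

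Ordered by the log2 difference of the brightest probe set, the measurable members ran from TFPI2 at 1.96 through PLAU at 0.40, THBD at 0.26, PLAUR at 0.13, SERPINE2 at -0.17 and F3 at -0.40 to TFPI at -1.19 and THBS1 at -1.66. The neighbours PLAU and THBD, THBD and PLAUR, PLAUR and SERPINE2, and SERPINE2 and F3 differed by less than the pooled SD between probe sets. The values of PLAU, THBD and F3 in this order rest on 1 array below the floor, so their places are not settled. The steps from TFPI2 to PLAU and from F3 to TFPI were larger than that SD. So was the step from TFPI to THBS1 by these brightest probe sets, but its direction depended on the processing. With all probe sets of a gene averaged, TFPI was at -1.06 and THBS1 at -0.89. With the _s_at and _x_at kinds dropped, TFPI was at -1.19 and THBS1 at -1.002. THBS1 stayed the lower gene in all other ways of processing. With only probe sets above the floor averaged, TFPI was at -1.40 and THBS1 at -1.60. The order of TFPI and THBS1 is thus not settled. With 1 array per line a gene has a single difference, so no gene is named here for a pattern like that of a member.

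The 3 called members kept their direction under each of the 9 other ways of processing that gave them a value. TFPI ran from -1.40 to -1.06 and was at least 2-fold lower in all 9. TFPI2 ran from 1.33 to 2.06 and was at least 2-fold higher in all 9. THBS1 ran from -1.72 to -0.89 and was at least 2-fold lower in 8 of 9, the exception being the average over all its probe sets, dim ones included. Of the 8, the value without probe sets named _x_at or _s_at rests on 235086_at, for which the bound set by the floor is 1.25-fold. SERPINE2 changed sign, to 0.09, in that same average.

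**Figure D4:**
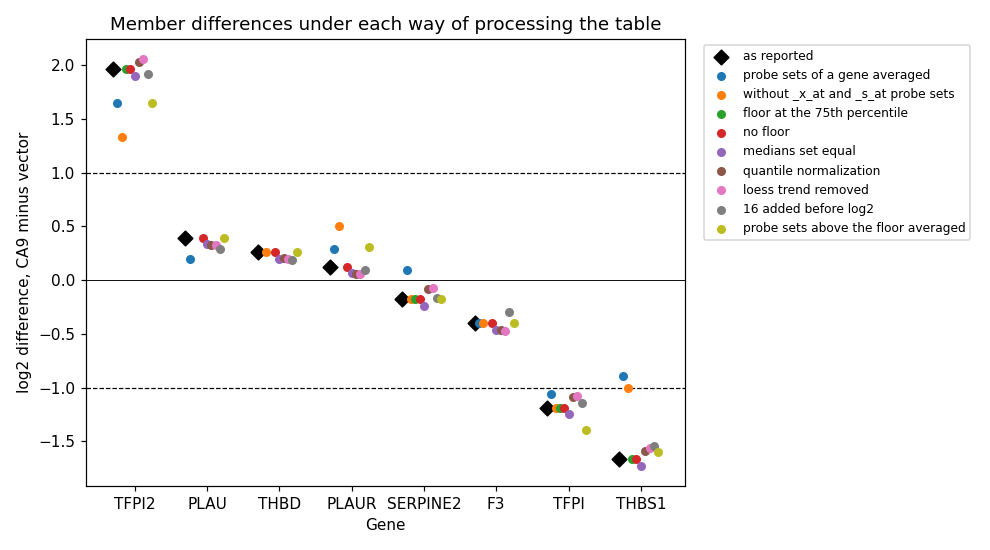
log2 difference (CA9 minus vector) of the 8 measurable members as reported (black diamonds) and under each alternative way of processing (coloured circles); dashed lines mark 2-fold. TFPI2 stays above the upper line, TFPI stays below the lower line, THBS1 crosses it once at -0.89, and no other member reaches either line.

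The other genes of these systems were taken from 7 lists of 110 genes in all, of which 102 were on the array with a single-gene probe set and 73 were measurable. Among the 73, 1 was called lower and none higher, against 0.694% and 0.651% of all measurable genes. Their median difference was 0.05, against -0.03 for all measurable genes, and 41 of the 73 lay above 0. In 57 of them the difference was smaller than 0.5 in size.

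The called gene was PLGRKT, a plasminogen receptor of the cell surface, with 55.9 in CA9 cells and 114 in vector cells, a difference of -1.02 in its single probe set. It belongs to the list of the plasminogen system and its receptors, where 14 genes were measurable, 5 lay above 0 and the median was -0.12. ITGAV, the integrin subunit of the vitronectin receptor, fell just short of 2-fold at -0.997, with 345 in CA9 cells and 687 in vector cells. The sorting receptor SORL1, which takes up urokinase complexes, had a difference of -0.89 in its brightest probe set and 75.5 against 140 in intensity. In another SORL1 probe set the CA9 line had 16.2 and the vector line 65.8, at least 1.61-fold lower, and in the third the values were 47.1 and 47.4.

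ANXA2, the annexin that binds plasminogen and tPA at the cell surface, is named although it was picked after its values were seen. It had 5121 in CA9 cells and 8927 in vector cells, a difference of -0.80, and its other bright probe sets were at -0.81 and -0.82. All 3 are of the kind named _x_at, which can detect related transcripts. Its partner S100A10 had a difference of 0.14. Plasminogen itself, PLG, had 54.8 in CA9 cells and 50.8 in vector cells. SERPINB2, SERPINE3 and VTN were not analysed here.

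**Figure D5:**
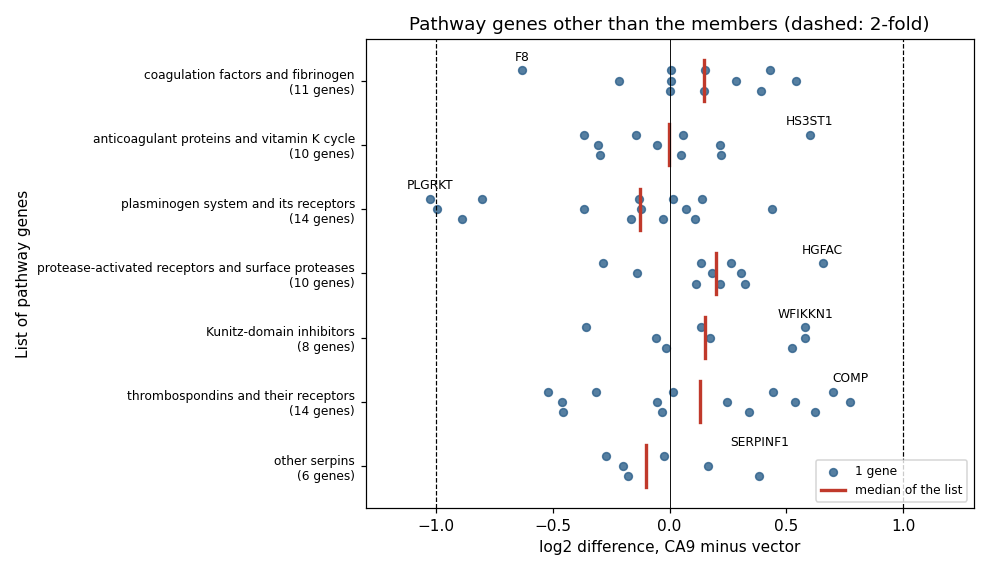
log2 difference (CA9 minus vector) of the measurable genes of 7 lists of clotting and plasminogen genes other than the members (blue points, 1 gene each), with the median of each list as a red bar and dashed lines at 2-fold. PLGRKT at -1.02 is the one gene past a line, and the list medians lie between -0.12 and 0.20.

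None of the 11 measurable coagulation factor and fibrinogen genes was called, and their median was 0.15 with 8 above 0. LMAN1, a gene of this list, is named after its values were seen. It counts as above 0 by its brightest probe set, at 0.15, while its others were at -0.97 and -0.78. F8, the factor VIII gene, had 27.7 in CA9 cells and 42.8 in vector cells and was at least 1.05-fold lower. The factor X gene F10 was at least 1.12-fold higher and the prothrombin gene F2 had a difference of 0.43. F7, whose product pairs with tissue factor, had 67.1 in CA9 cells and 51.2 in vector cells. Most of these genes are made by liver, and F9, F13A1, F13B, FGB and FGG were below the floor on both arrays.

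None of the 10 measurable anticoagulant and vitamin K cycle genes was called, and their median was 0.00. HS3ST1, an enzyme that gives heparan sulfate its antithrombin-binding form, had the largest difference at 0.60. The vitamin K-dependent carboxylase GGCX was at -0.37 and the protein S gene PROS1 at -0.30. The 4 other GGCX probe sets above the floor ran from -0.64 to 0.83. The protein C gene PROC and its receptor PROCR, which act together with thrombomodulin, were below the floor on both arrays.

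The 8 measurable Kunitz-domain genes other than TFPI and TFPI2 had a median of 0.15, with none called. WFIKKN1 had a difference of 0.58, AMBP was at least 1.32-fold higher and PAPLN at least 1.05-fold higher in the CA9 line. The matriptase inhibitor SPINT1 was at -0.06, and its other probe set above the floor was at 0.39. The amyloid precursor genes APP and APLP2, which also carry a Kunitz domain, were at -0.36 and -0.02. The 7 other APLP2 probe sets above the floor ran from -0.44 to 0.39.

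Of the 14 measurable genes of other thrombospondins, their receptors and the TGF-beta genes tied to them, none was called with the brightest probe set, and the median was 0.13. COMP, the thrombospondin of cartilage, was at least 1.20-fold higher in the CA9 line. TGFB1 was at 0.70, with 499 in CA9 cells and 307 in vector cells, and its second probe set at 0.16. LRP5 was at 0.62. THBS3 and THBS4 had differences of 0.25 and 0.02, and THBS2 was below the floor. CD47, a surface receptor of thrombospondin 1, was at -0.03, and CD36, another, was below the floor. CALR, which encodes calreticulin, is named after its values were seen: it was at 0.34 in its brightest probe set and at 0.92 and 1.98 in its others, and it was called higher when they were averaged.

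The 10 measurable protease-activated receptors and surface proteases had a median of 0.20, with 8 above 0 and none called. The growth factor activator HGFAC was at 0.65, the matriptase gene ST14 at 0.32 and TMPRSS2 at 0.31. F2R, the main thrombin receptor, was at -0.14, and F2RL2 and F2RL3 were below the floor. Among 6 measurable other serpins the median was -0.10 and none was called. SERPINF1 was at least 1.07-fold higher, the collagen chaperone SERPINH1 was at -0.27 and SERPINA1 was at least 1.01-fold lower.

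The genes on either side of the members were looked at after the values were seen. Taking the 3 nearest protein-coding genes on each side in the RefSeq order of GRCh38.p14 gave 54 neighbours, of which 37 were measurable. Their differences ran from -0.97 to 1.00. The one neighbour called was SRRM5, near PLAUR, with 124 in CA9 cells and 61.8 in vector cells. Beside TFPI, GULP1 had a difference of -0.97 with 141 in CA9 cells and 275 in vector cells. The collagen genes COL3A1 and COL5A2, beyond GULP1, were both at 0.12. On the other side of TFPI, CALCRL and ZSWIM2 were below the floor on both arrays, and FAM171B beyond them was at -0.81. Beside TFPI2, VPS50 was at -0.74 and BET1 at -0.35, and CALCR, GNGT1, GNG11 and HEPACAM2 were below the floor on both arrays. Beside THBS1, GPR176 was at least 1.37-fold lower, EIF2AK4 at 0.11 and FAM98B at -0.07. No measurable neighbour of TFPI2 or THBS1 was called. GULP1 and the more distant FAM171B, on opposite sides of TFPI, were lower in the CA9 line like TFPI and were not called.

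The identity of the cells and the arrays were checked on marker lists and controls. Of 8 cervical carcinoma and epithelial markers on the array 6 were measurable, led by CDKN2A with 2659 in CA9 cells and 2739 in vector cells and by KRT7 with 193 and 172, while EPCAM and CDH1 were below the floor in both lines. No marker was called. The summed intensity was 3162 in CA9 cells and 3157 in vector cells for the epithelial list, 400.4 and 357 for 10 endothelial genes, 3170 and 2900 for 10 fibroblast genes, 436 and 406 for 7 platelet genes, 234 and 210 for 5 leukocyte genes and 319 and 265 for 6 liver genes. Measurable were 3, 6, 4, 4 and 3 genes of the latter 5 lists. The brightest by mean log2 intensity were PECAM1 and ROBO4, COL3A1 and COL1A1, GP9 and PF4, CD3D and ITGAM, and APOA1 and TTR. CDH5, KDR, LUM, PPBP and ALB were below the floor on both arrays. The epithelial sum rests on CDKN2A, at 2659 and 2739, and the fibroblast sum on COL3A1, at 2538 and 2339. The part of other cells in the member differences was not tested. The hybridisation spike-ins were higher on the CA9 array, by a median of 0.41 with 17 of 18 above 0, and ACTB control signal at the 3′ end exceeded that at the 5′ end by 0.67 (log2) in CA9 cells and by 0.73 in vector cells. Their part in the differences was not tested either.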

How the data were processed

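Expression was measured in 1 CA9-transfected and 1 vector-transfected sample of C33-A cells. The deposited intensities were produced by the authors, who used RMA per the submitters' processing notes. Its version and settings are not given in the sources used here. They are on a linear scale, as read from the values, and log2 was taken with no pseudocount. Probe sets were named through the platform annotation, with symbols updated through RefSeq (41037 of 41091 single-gene probe sets matched), and 1801 that list more than 1 gene were left unnamed, as were 11721 that it does not list. A gene was represented by its brightest single-gene probe set. The number of arrays limits the precision. The members and lists were chosen with earlier results of these data known. Named were all members, the called genes of each pathway list, filled up to the 3 largest differences, and the 2 brightest genes of each marker list. Further genes of the lists, with ANXA2, CALR and LMAN1 among them, were named outside this rule. Alternatives covered the probe set choice, the floor, normalization, a pseudocount of 16 and a 1.5-fold call. The average over probe sets above the floor, the neighbouring genes and the motifs were added after the data were seen. Python 3.11.15, numpy 2.4.6, pandas 2.3.3, statsmodels 0.14.6 and matplotlib 3.10.9 were used.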

Additional observations from a re-analysis of the deposited data

How the results depend on the processing

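With 1 array per line no replicate could be left out. The calls over all genes, 90 higher and 96 lower, became 44 and 48 with the probe sets of a gene averaged, 42 and 51 with 16 added before log2, and 731 and 655 at 1.5-fold. A floor at the 75th percentile gave 56 higher. The count of lower members, 2 as reported, was 1 with averaged probe sets, where THBS1 fell short of 2-fold, and no other setting changed it. The count of higher members was 1 throughout. Of the pathway genes outside the members 1 was called as reported, 0 with 16 added before log2, 10 at 1.5-fold, and 2 with the array medians set equal, with probe sets averaged, with those above the floor averaged, and without probe sets named _x_at or _s_at. PLGRKT was among the called genes in each of these except the one with 16 added. Without such probe sets TFPI2 was at 1.33, and PLAU had no value. THBS1 was then at -1.002 and PLAUR at 0.50 by measured values, each with 1 array below the floor, which makes THBS1 at least 1.25-fold lower and PLAUR at least 1.03-fold higher. Depth is not defined for arrays, and signal over the floor limits what can be said of F3, THBD, PLAT, PLAU and PLAUR.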
